A study of Oryza sativa Japonica Group with 18 samples.

Results

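Roots of rice seedlings that had been without K+ for 6 h were compared with roots of seedlings kept on a K+-replete solution for the same time. The comparison takes 3 arrays labelled K+-deficient (LK) and 3 labelled K+-replete (CK) at 6 h, which are 6 of the 18 arrays of a time course over 6 h, 3 d and 5 d. All plants were of the japonica cultivar Nipponbare, had grown hydroponically for 2 weeks under a day and night cycle on the full nutrient solution, and differed at transfer only in the K2SO4 that was left out of the LK solution. Each array carried root RNA pooled from 5 seedlings. The Affymetrix Rice Genome Array reports 1 signal for each probe set, a group of short probes against the transcript of a gene.

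K+ is the main cation of plant cells and sets turgor, membrane potential and the activity of many enzymes. Roots take it up through inward-rectifying channels such as AKT1 when the supply is high and through HAK/KUP transporters when it is low. In Arabidopsis and in rice the AKT1 channel is switched on by CBL calcium sensors together with CIPK kinases, so that part of the early answer to low K+ runs through proteins that already exist. HKT transporters of the second subfamily carry Na+, or Na+ and K+, and are known in cereals to take up Na+ into K+-starved roots.

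The 6 arrays were alike over the whole set of transcripts. Their median signals ran from 22.2 to 23.3 over all 57194 probe sets, and log2 signals of the kept probe sets correlated at 0.9867 to 0.9934 within the groups and at 0.9843 to 0.9925 between a CK and an LK array. The median replicate SD of the log2 signal was 0.121 in CK and 0.0986 in LK roots. Root markers were present: the 8 probe sets of 7 genes summed to 13024 to 14088 in CK and 12606 to 13602 in LK roots, and Lsi1, the silicon channel of the root, read 5106, 5133 and 4977 on the CK arrays and 4519, 5201 and 4903 on the LK arrays. The 22 probe sets of 20 genes of dividing cells summed to 12975 to 14445 and 13201 to 13894. Markers of green shoot tissue also gave signals, and their sum over 8 probe sets of 5 genes was 2563 to 3554 in CK and 3520 to 4256 in LK roots. No marker of these classes was called different, nor was the single root hair marker OsCslD1. In RNA from whole roots, fewer cells of a type and less RNA per cell cannot be told apart.

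After 6 h without K+ few probe sets were called different, and most of the called changes were small. Of 25165 probe sets with the highest mean signals, which were the ones tested, 133 were called different between LK and CK roots by limma (Benjamini-Hochberg adjusted p under 0.05), which is 0.529% of those tested. Of these, 68 (0.270%) were higher and 65 (0.258%) lower in LK roots. Signals of all 3 LK arrays lay on one side of all 3 CK arrays in each of the 133, whereas the same held for 13.2% of all probe sets tested. The median rise was 1.49-fold, with a range of 1.14-fold to 2.66-fold, and the median fall was 1.40-fold, with a range of 1.17-fold to 2.14-fold. At least 2-fold changes were called in 12 probe sets that rose and 2 that fell, while 35 of the rises and 47 of the falls were under 1.5-fold. A change of 2-fold or more in mean signal was present in 28 probe sets, so 14 of them did not pass the test. The median CK signal was 164 among the probe sets that rose, 366 among those that fell and 175 among all that were tested. The annotation gives a single gene for 96 of the 133 and no gene for 37, and the 96 stand for 88 different genes, 18 of which have a name other than a LOC number.

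The number of calls depended on single arrays. Without CK replicate 1, 68 probe sets were higher and 27 lower, without CK replicate 2 the counts were 28 and 39, and without CK replicate 3 they were 29 and 38. Leaving out LK replicate 1, 2 or 3 gave 35, 20 and 21 higher and 28, 22 and 15 lower. In these 6 fits 73, 64, 53, 57, 40 and 36 of the 133 calls were kept, in the same order. In all 6 of them, 23 probe sets stayed called, 15 higher and 8 lower. With no filter on low signals, 47 of the 133 stayed called. For each gene below, except LOC4345349 and LOC4336402, the number of these 6 fits in which it was still called is given where it is under 6. An unadjusted p under 0.05 was reached by 2330 probe sets (9.26%). Whether the pools of seedlings came from separate hydroponic vessels is not given in the sources used here, so the p-values measure the spread between these RNA pools.

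**Figure D1:**
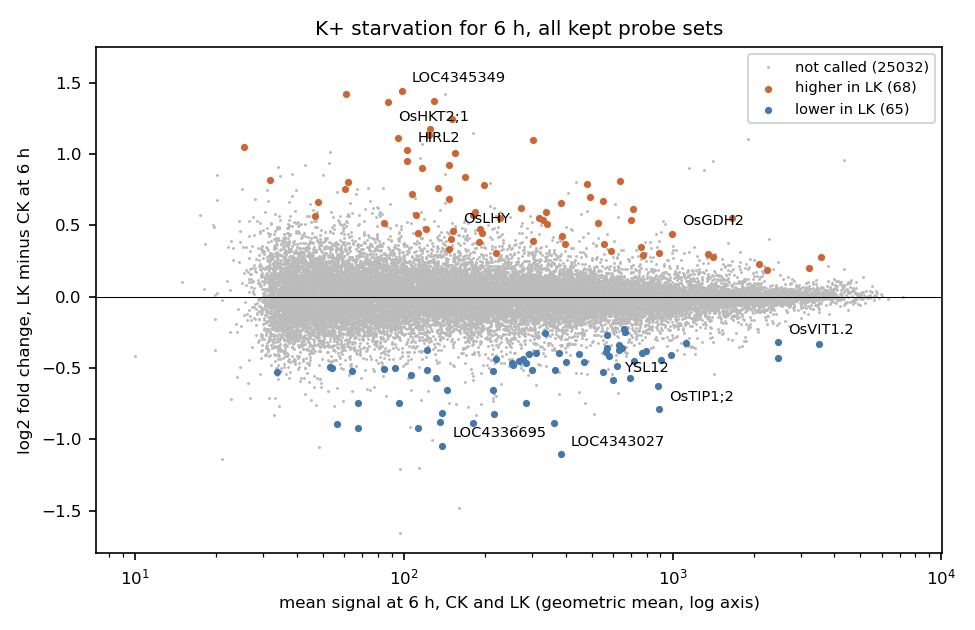
Log2 fold change (LK minus CK at 6 h, vertical axis) against the geometric mean signal of the 6 arrays (horizontal log axis) for the 25165 kept probe sets, 1 point each. Orange points are the 68 called higher in LK roots, blue points the 65 called lower and grey points those not called. The called rises reach a log2 fold change of 1.44 and the called falls -1.10.

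Among genes of K+ and Na+ transport, OsHKT2;1 rose most. This gene encodes a Na+ transporter of the root, and its probe set was identified through the primer list of the study because the annotation gives it no gene. It read 54.7, 51.9 and 56.1 on the CK arrays and 151.5, 131 and 137 on the LK arrays. The 3 LK signals were close together and all far above the highest CK signal. The change was 2.58-fold, or 1.36 ± 0.11 (SE) on the log2 scale (limma, adjusted p = 1.6e-05), and it carried the smallest adjusted p of all probe sets at 6 h. Its CK signals were well under the median of 175, where background is a larger part of the signal and a ratio can understate the change. At the later times the log2 difference was 2.99 at 3 d and 2.94 at 5 d.

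OsHAK1, the high-affinity K+ transporter of rice roots, rose by a small but even amount on both of its probe sets. The brighter one read 1991, 1924 and 1906 in CK and 2244, 2332 and 2238 in LK roots, and the other 1393, 1234 and 1209 and 1587, 1504 and 1559. No LK signal fell into the range of the CK signals on either of them. The log2 differences were 0.23 ± 0.04 (adjusted p = 0.014, called in 2 of the 6 fits with an array left out) and 0.28 ± 0.06 (adjusted p = 0.047, 1 of 6), or 1.17-fold and 1.21-fold. At 3 d and 5 d the brighter probe set showed log2 differences of 0.28 and 0.33, and neither differed from that at 6 h in the interaction test (adjusted p = 0.72 and 0.30).

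The other K+ transporters and channels analysed here gave no call. OsHAK24 and OsK3.1, which the study lists as changed at 6 h, were not analysed. Of 16 HAK and HKT genes with a matching name and a tested probe set, 1 was higher (OsHAK1) and 0 lower. OsHKT2;1, to which the annotation gives no gene, is not among these 16. The median log2 difference of the 16 was -0.02. Of all 14751 genes, 41 were higher and 41 lower, with a median of 0.00. OsHAK25 read 394, 397 and 371 in CK and 279, 329 and 314 in LK roots, all LK signals below all CK signals, and missed the threshold (-0.34 ± 0.07 (SE), adjusted p = 0.053). OsHAK5, another high-affinity member, gave 0.05 ± 0.05 with overlapping arrays. OsAKT1, the inward K+ channel of the root, read 1094, 855 and 1034 and 1189, 1273 and 1205. Its LK signals were all above those of CK roots, yet CK replicate 2 stood apart from the other CK arrays and the test was missed (0.30 ± 0.07 (SE), adjusted p = 0.065). None of the 5 K+ channel genes was called, and the vacuolar channel genes OsTPK2 (0.19 ± 0.08) and OsTPK3 (-0.11 ± 0.08) lay on opposite sides of 0.

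A kinase gene of the WNK family, whose members regulate ion transport in animals, was the only called gene among 24 WNK and MAP kinase genes. OsWNK7 read 299, 257 and 236 in CK and 419, 368 and 368 in LK roots on its first probe set, and 302, 277 and 239 and 422, 369 and 392 on its second. On both, LK replicate 1 was the highest of the 6 arrays and the lowest LK signal was above the highest CK signal. The rises were 1.46-fold and 1.44-fold, or 0.55 ± 0.09 (adjusted p = 0.011, 4 of 6 fits) and 0.54 ± 0.10 (adjusted p = 0.019, 1 of 6). The probe set of OsWNK8 belongs to the same sequence cluster of the array design, so transcripts of these relatives may share probes. OsWNK8 read 135, 104 and 111 and 161, 149 and 150.1 and was not called (0.40 ± 0.11 (SE), adjusted p = 0.15). OsWNK9 lay on the other side of 0 (-0.23 ± 0.05 (SE), adjusted p = 0.067), also without a call.

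None of 29 genes for CBL calcium sensors and CIPK kinases was called. Their median log2 difference was 0.10, beside 0.00 over all genes, and in 8 of 29 (27.6%) all LK signals were above all CK signals, with 0 of 29 the other way. Over all genes, counted the same way, these shares were 7.19% and 6.68%. The smallest adjusted p belonged to OsCIPK2, with 1876, 1811 and 1834 in CK and 2216, 2189.6 and 2201 in LK roots (0.26 ± 0.06 (SE), adjusted p = 0.064). Its arrays were tight in both groups and well separated, but the difference was small. OsCIPK18 followed (193, 208 and 187 against 242, 279 and 268; 0.42 ± 0.10 (SE), adjusted p = 0.068). OsCIPK23, which activates the AKT1 channel, read 1711, 1649 and 1642 and 1921, 2046 and 1762 (0.19 ± 0.06 (SE), adjusted p = 0.21). Of 41 genes for calcium-dependent kinases, calmodulins and calmodulin-like proteins none was called, and OsCCaMK, the calcium and calmodulin-dependent kinase of symbiosis, read 449, 344 and 379.9 and 324, 299.6 and 308 (-0.32 ± 0.09 (SE), adjusted p = 0.16).

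The largest ratios were in genes that the annotation lists by a LOC number alone. LOC4345349 read 77.8, 44.4 and 58.0 in CK and 168, 173 and 139 in LK roots, 2.66-fold more. Its CK arrays were widely spread, and all LK signals were far above them. The probe sets of LOC4345349 and of LOC4336402, described next, were the 2 of the 68 rises that were tested only because their LK arrays at 6 h were high: the geometric means of the other 15 arrays, 27.9 and 28.5, lay under the lowest mean tested, 32.2. They are given as descriptions with no p-value or count of fits, and neither was called without the filter on low signals. LOC4336402 had the same ratio of 2.66, with 36.0, 48.7 and 27.4 in CK and 112, 115 and 70.7 in LK roots. Its LK replicate 3 was below the other LK arrays. LOC4336875 went from 203, 199 and 216 to 448, 477 and 401, 2.15-fold (adjusted p = 0.014, 3 of 6), and here both groups were narrow and wide apart.

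LOC4333004 was the gene with the most probe sets among those called: 3 of its 5 were higher in LK roots, and all 5 had log2 differences above 0. The brightest, with means of 488 in CK and 627 in LK roots, gave 0.37 (adjusted p = 0.017, 2 of 6 fits), and the next, with 286 and 405, gave 0.51 (adjusted p = 0.0084). The third called one read 18.1, 16.8 and 18.3 in CK and 37.0, 37.1 and 36.0 in LK roots (adjusted p = 0.0015). Those CK signals lay below the CK array medians of 22.2 to 23.3, so the size of that rise is not given. LOC4344351 read 106, 106 and 115 in CK and 195, 247 and 219 in LK roots, and every LK signal was far above the CK arrays (adjusted p = 0.00014). The other rises named by the same rule were those of LOC4346682 (0.84, 3 of 6 fits), LOC4327653 (0.79), LOC4334549 (0.78, 0 of 6), LOC4343604 (0.70, 5 of 6) and LOC4344608 (0.68). LOC4344608 was among the steadiest of them, with 115, 121 and 114 on the CK and 193, 184 and 183 on the LK arrays (adjusted p = 0.010). The probe set of LOC4343604 shares its sequence cluster with that of LOC4324705, which was also called (0.67, 2 of 6), so these may not be separate measurements.

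Beside that of OsHKT2;1, other probe sets without an annotated gene rose, and 2 of them are described here after their values had been seen. The one with the largest rise read 98.6, 60.6 and 84.3 in CK and 231, 198 and 191 in LK roots (1.37 ± 0.22 (SE), adjusted p = 0.0084), and the one with the smallest adjusted p read 92.0, 86.6 and 72.8 and 199.6, 169 and 182 (1.14 ± 0.11 (SE), adjusted p = 0.00011). In both, the lowest LK signal was well above the highest CK signal. They parted later. The first gave a log2 difference of -0.67 at 3 d and was lower again at 5 d, and the second gave 0.97 and 1.98. The mean LK signal of the first at 5 d, 21.2, lay under the array medians of 22.1 to 23.4, so no size is given there. Its call at 6 h was lost without the filter on low signals and with a stricter one.

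Genes of amino acid and nitrogen metabolism gave single calls. OsGDH2, for a glutamate dehydrogenase that links glutamate to the carbon cycle, read 825, 893 and 833 in CK and 1159, 1140.5 and 1160.4 in LK roots. The 3 LK signals were almost equal, and the groups were wide apart (1.36-fold; 0.44 ± 0.08 (SE), adjusted p = 0.018, 1 of 6 fits). Its other 2 probe sets were above 0 without a call. GLT2, for an NADH-dependent glutamate synthase, rose from 40.0, 39.7 and 35 to 51.1, 58.5 and 60.5 (0.57 ± 0.12 (SE), adjusted p = 0.032, 1 of 6), at signals near the lower end of those tested. PDX11, for a subunit of the enzyme that makes vitamin B6, the cofactor of aminotransferases, read 1226, 1224 and 1214 and 1565, 1422 and 1514. The CK arrays were nearly equal there, and LK replicate 2 was the lowest of the LK arrays but still above them (1.23-fold; 0.30 ± 0.05 (SE), adjusted p = 0.014, 3 of 6). The list of 19 genes for uptake and assimilation of nitrate and ammonium, whose name patterns do not take in GLT2, had OsGDH2 as its 1 call. NR1, for nitrate reductase, read 969, 921 and 847 and 1116, 1106 and 1083 without passing (0.27 ± 0.07 (SE), adjusted p = 0.087), and OsAMT3;2, for an ammonium transporter, 506, 615 and 566 and 425, 476 and 455 (-0.31 ± 0.10 (SE), adjusted p = 0.24).

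Further named genes that rose belong to diverse families. HIRL2 went from 75.7, 62.9 and 77.8 to 161, 148 and 131, with LK replicate 3 the lowest of its group and still clear of CK roots (1.03 ± 0.14 (SE), adjusted p = 0.0019). OsLOL4, for a zinc finger protein related to LSD1, went from 92.9, 116 and 100.1 to 157, 181 and 185 (0.76 ± 0.15 (SE), adjusted p = 0.031), a call that was lost in every fit with an array left out (0 of 6). LAC24, for a laccase that oxidises phenolic compounds in the cell wall, read 600.4, 577 and 552 and 924, 964 and 766 (0.61 ± 0.09 (SE), adjusted p = 0.0067). Again LK replicate 3 was the lowest LK signal, and the groups were well apart. LAC24 was the only called gene of 20 phenylpropanoid and laccase genes, whose median was -0.11 with 4 members above 0. OsPP2C39, for a type 2C protein phosphatase, rose from 110.5, 93.0 and 87.5 to 131, 138 and 126 (0.45 ± 0.10 (SE), adjusted p = 0.047, 1 of 6), but its brighter probe set gave a log2 difference of 0.04 (adjusted p = 0.96).

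OsLHY, also known as OsCCA1, encodes a morning factor of the circadian clock and was the only called gene of 7 clock genes. It read 126, 136 and 127 in CK and 173, 193 and 171 in LK roots, with both groups narrow and separate (1.38-fold; 0.46 ± 0.07 (SE), adjusted p = 0.0049). The pseudo-response regulators OsPRR95 (0.28 ± 0.07 (SE), adjusted p = 0.13), OsPRR73 (0.25 ± 0.08 (SE), adjusted p = 0.20) and OsPRR37 (0.17 ± 0.07 (SE), adjusted p = 0.48) had all LK signals above all CK signals without passing. OsPCL1, the rice counterpart of an evening gene of the clock of Arabidopsis, had all LK signals below all CK signals (1087, 869.5 and 884 against 809, 805 and 799; -0.23 ± 0.13 (SE), adjusted p = 0.66). Mean CK signals of the 3 times, in order, were 129.9, 780.5 and 1220.2 for OsLHY and 947, 35.3 and 23.7 for OsPCL1. These CK roots were not starved, and hour of harvest, age of the seedlings and time since transfer cannot be told apart between their times. For the LK minus CK difference, length of starvation cannot be told apart from these either. A difference in the hour at which LK and CK roots were taken at 6 h was not tested.

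**Figure D2:**
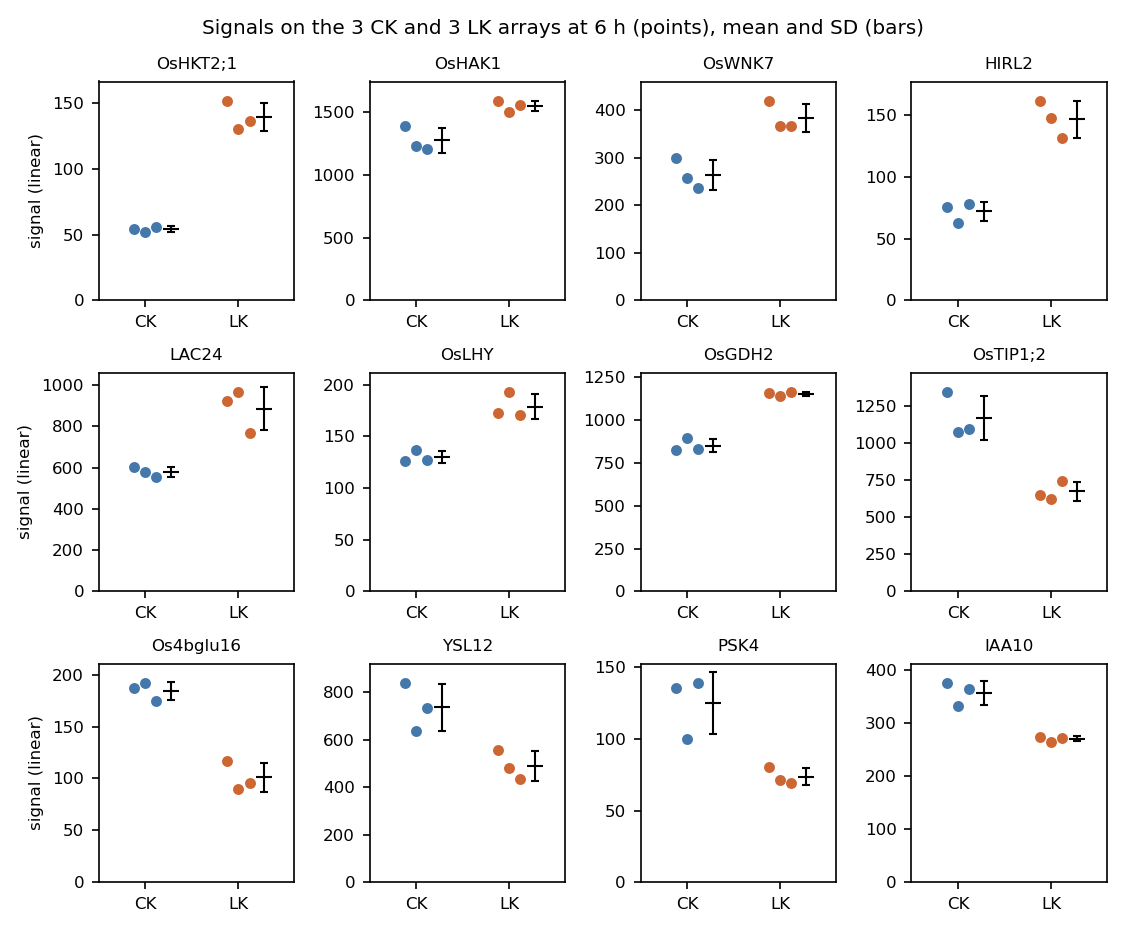
Linear signal (vertical axes, from 0) of 12 genes called at 6 h on the 3 CK arrays (blue points) and 3 LK arrays (orange points), with the mean and SD of each group as black bars. In every panel the 3 LK points lie on one side of the 3 CK points. OsHKT2;1 went from a mean of 54.2 to 139.7 and OsTIP1;2 from 1169 to 675.

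On the falling side, genes for water, sugar conjugates and metals were represented. OsTIP1;2, for an aquaporin of the vacuolar membrane, read 1342, 1074 and 1092 in CK and 652, 625 and 748 in LK roots. All LK signals were far under the lowest CK signal (1.73-fold lower; -0.79 ± 0.09 (SE), adjusted p = 0.00059). It was the only call among 19 aquaporin genes, counted by their brightest probe sets. OsTIP1;1, of the same subfamily, gave -0.00 ± 0.03, and OsPIP2;5 and OsPIP2;4, of the plasma membrane, gave 0.36 ± 0.09 (adjusted p = 0.084) and 0.18 ± 0.05 (adjusted p = 0.18). OsPIP2;1 was called on a weaker probe set, with 165, 180.0 and 144 in CK and 203, 230.0 and 245 in LK roots (0.47 ± 0.09 (SE), adjusted p = 0.028, 2 of 6). Its brightest one read 4517, 3932 and 4079 and 4029, 4108 and 4147, with overlapping arrays, so the probe sets of this gene disagree.

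Os4bglu16, for a β-glucosidase that releases sugars from glucosides, was lower on both of its probe sets. These read 168, 165 and 132 in CK and 90.5, 73.8 and 80.8 in LK roots, and 187, 192 and 175 and 117, 90.1 and 96.0. On neither did an LK array come near the CK arrays, and the falls were 1.90-fold and 1.83-fold (-0.92 ± 0.11 and -0.88 ± 0.10, adjusted p = 0.00075 for both). The other 19 of 20 β-glucosidase genes were not called, and the median of the list was 0.04.

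The list of iron, zinc and manganese transport was the only one with more than 1 called gene, and both were lower. OsVIT1.2, which loads iron and zinc into the vacuole, read 2913, 2721 and 2616 in CK and 2144, 2245 and 2224 in LK roots (-0.32 ± 0.06 (SE), adjusted p = 0.019, 1 of 6 fits). YSL12, of a family that carries metals bound to phytosiderophores or nicotianamine, read 838, 636 and 735 and 557, 481 and 434 (-0.58 ± 0.12 (SE), adjusted p = 0.027, 2 of 6). Its replicates were more widely spread than those of OsVIT1.2, and the groups did not overlap in either gene. Of the 34 members, 9 (26.5%) had all LK signals below all CK signals and 5 (14.7%) all above, beside 6.49% and 6.73% of all probe sets, and the median was -0.06. OsMTP3, of the cation diffusion facilitators, read 896, 759 and 761 and 634, 628 and 644 (-0.34 ± 0.08 (SE), adjusted p = 0.070). OsIRO2, a transcription factor of the iron deficiency response, lay on the other side at 51.3, 45.6 and 56.4 and 65.8, 76.8 and 73.1 (0.49 ± 0.12 (SE), adjusted p = 0.078).

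Genes for a peptide hormone, an auxin repressor and a transporter gave single calls. PSK4, which encodes a precursor of the growth peptide phytosulfokine, read 136, 100.1 and 139 in CK and 80.6, 71.4 and 69.0 in LK roots (1.69-fold lower; -0.75 ± 0.13 (SE), adjusted p = 0.014, 2 of 6). CK replicate 2 was the lowest CK array and still above all LK arrays. IAA10, a repressor of the auxin response, read 375, 332 and 364 and 274, 265 and 273 (-0.40 ± 0.07 (SE), adjusted p = 0.017, 1 of 6). It was the only call of 51 auxin genes, with a list median of -0.01. The next by adjusted p, IAA1, read 1128, 1033 and 1053 and 960.3, 948 and 897 (-0.20 ± 0.05 (SE), adjusted p = 0.15), and OsGH3-1, for an enzyme that conjugates auxin to amino acids, gave -0.36 ± 0.18 (SE), adjusted p = 0.59. OsABCG48, for a transporter of the ABC family, fell from 915, 868 and 858 to 689, 712 and 607 (-0.40 ± 0.08 (SE), adjusted p = 0.028, 0 of 6).

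The deepest falls were again in genes listed by a LOC number. LOC4343027 read 469, 496 and 713 in CK and 294, 306 and 185 in LK roots, 2.14-fold lower (-1.10 ± 0.21 (SE), adjusted p = 0.024, 3 of 6). The study describes the target of its probe set as a putative fatty acid desaturase of the omega-6 type. Its near neighbour LOC4343026, with 1 gene between them in the RefSeq annotation, read 227, 201 and 304 and 155, 158 and 90.5 (-0.88 ± 0.18 (SE), adjusted p = 0.031, 3 of 6). In both genes CK replicate 3 was the highest and LK replicate 3 the lowest of the 6 arrays. Without replicate 3 of both groups, a setting chosen after this was seen, the log2 differences were -0.69 and -0.45 (adjusted p = 0.33 and 0.30).

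LOC4336695 read 205, 203 and 188 in CK and 86.1, 91.5 and 114 in LK roots, 2.05-fold lower with LK arrays at about the same distance from a tight CK group (-1.04 ± 0.12 (SE), adjusted p = 0.00052). LOC4327537 went from 425, 331 and 352 to 230.0, 215 and 212 (-0.75 ± 0.11 (SE), adjusted p = 0.0049), and an unnamed probe set of the same sequence cluster was called as well. LOC4343452 (-0.89, 1 of 6), LOC4327648 (-0.75, 2 of 6), LOC4339502 (-0.65, 5 of 6), LOC4326700 (-0.62, 4 of 6), LOC4327377 (-0.57, 4 of 6) and LOC9268371 (-0.53, 2 of 6) completed the 10 deepest falls of such genes. LOC4339502 had the narrowest groups of these, with 182, 183 and 180.3 against 117, 112 and 118. Genes next to each other were called together in 2 further cases, each pair in the same direction: LOC4336795 and LOC4336796 fell (-0.38, 2 of 6, and -0.52), and LOC4337359 and LOC4337360 rose (0.62, and 0.20, 1 of 6).

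Of 702 genes in 37 lists of transport, nutrient, signalling, hormone, transcription factor, cell wall, metabolism, stress and clock genes, 10 were called (1.42%), beside 82 of all 14751 genes (0.556%). No gene was called in 28 lists, 1 gene in 8 lists and 2 genes in 1 list. The median log2 difference was -0.64 for diterpenoid synthesis, 0.26 for photosynthesis and 0.17 for the circadian clock. In the other lists it ran from -0.12, for cytochromes P450, which share members with diterpenoid synthesis, to 0.14 for NAC factors. Lists for phosphate and sulfate transport (13 and 5 genes), expansins (22), cellulose synthases and xyloglucan enzymes (26), sugar transport (13) and sucrose cleavage (15) held no call, and neither did those for cyclins and histones (39) or for heat shock proteins (31). OsSUS1, for sucrose synthase, read 3667, 3603 and 3271 and 3750.2, 4332 and 4156 (0.21 ± 0.06 (SE), adjusted p = 0.16), and OsPT8, for a phosphate transporter, 1492, 1380.0 and 1481 and 1642, 1634 and 1758 (0.21 ± 0.06 (SE), adjusted p = 0.17). In both genes LK signals were above CK signals on all arrays by small amounts.

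Among the genes of the hormone lists, counted by their brightest probe sets, only IAA10 was called. None of 34 jasmonate genes, 25 cytokinin genes, 9 ethylene genes, 8 gibberellin genes and 58 genes of PP2C phosphatases, dehydrins and abscisic acid passed when counted by their brightest probe set. OsCKX11, for a cytokinin oxidase, read 466, 379 and 318 in CK and 305, 294 and 264 in LK roots (-0.42 ± 0.11 (SE), adjusted p = 0.12). OsRR9, a response regulator of the same hormone, lay the other way (469.5, 535 and 634 against 636, 676 and 660.2; 0.28 ± 0.09 (SE), adjusted p = 0.24). LOX9, for a lipoxygenase, read 96.7, 116 and 125 and 189, 148 and 141 (0.50 ± 0.19 (SE), adjusted p = 0.38), and OsJAZ3, a repressor of the jasmonate response, 735, 626 and 581 and 570.4, 568 and 509 (-0.23 ± 0.08 (SE), adjusted p = 0.32). OsPP2C28 had the smallest adjusted p of the abscisic acid list (1288, 958 and 979 against 819, 875 and 818; -0.35 ± 0.08 (SE), adjusted p = 0.080). Among 7 families of transcription factors with 6 to 17 genes each, none was called. OsWRKY62 gave 0.44 ± 0.17 (SE), adjusted p = 0.38, OsMYBS1 -0.49 ± 0.18 (SE), adjusted p = 0.34 and OsABF2 0.27 ± 0.10 (SE), adjusted p = 0.35.

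**Figure D3:**
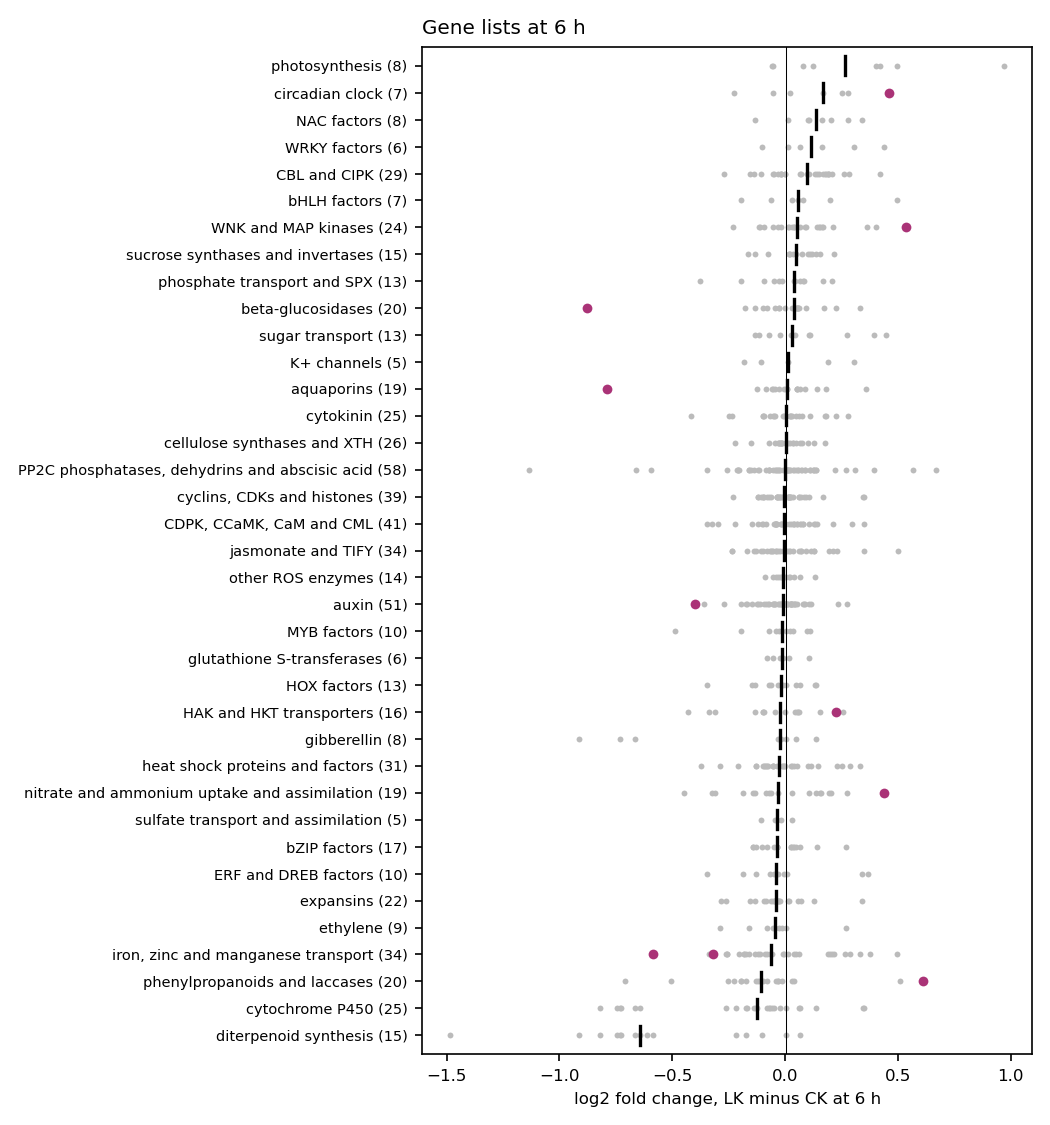
Log2 fold change (LK minus CK at 6 h, horizontal axis) of the members of 37 gene lists, 1 point per gene by its brightest probe set, with the number of genes in brackets. Purple points are called genes, grey points genes not called, and black bars list medians. The median of the diterpenoid genes lies at -0.64, and those of most other lists lie near 0.

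Rice makes diterpenoid phytoalexins, momilactones and phytocassanes, from geranylgeranyl diphosphate through copalyl diphosphate synthases and cytochromes P450 encoded in gene clusters. Of 15 genes of diterpenoid synthesis none was called, and 13 had log2 differences below 0. In 4 (26.7%) all LK signals lay below all CK signals, beside 6.68% of all genes. OsCPS2, for a copalyl diphosphate synthase, read 146, 159 and 488 in CK and 113, 149 and 30.7 in LK roots (-1.49 ± 0.55 (SE), adjusted p = 0.36). OsKS3, of the kaurene synthase family, read 112, 113 and 194 and 95.6, 104 and 37.1 (-0.91 ± 0.32 (SE), adjusted p = 0.33). In both, a single CK array was far above and a single LK array far below the others, and these were replicate 3 of each group.

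The same arrays were extreme in most of the list. CK replicate 3 was the highest CK array in 9 of the 15 genes and LK replicate 3 the lowest LK array in 12, and both held in 9 (60.0%), beside 4.75% of all genes. CYP99A3, a cytochrome P450 of momilactone synthesis, read 555, 680.2 and 765 and 420.4, 490.1 and 253 (-0.82 ± 0.21 (SE), adjusted p = 0.10). OsKO5, of the kaurene oxidase family, read 254, 259.9 and 315 and 172, 198 and 133 (-0.73 ± 0.16 (SE), adjusted p = 0.051). Both had separate groups, although LK replicate 3 was again well under the other LK arrays. The median of the list was -0.44 without CK replicate 3, -0.40 without LK replicate 3 and -0.22 without both, with 13 of 15 members below 0 in the last case. At 3 d and 5 d the list median was 0.33 and -0.04. What set these arrays apart was not tested.

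**Figure D4:**
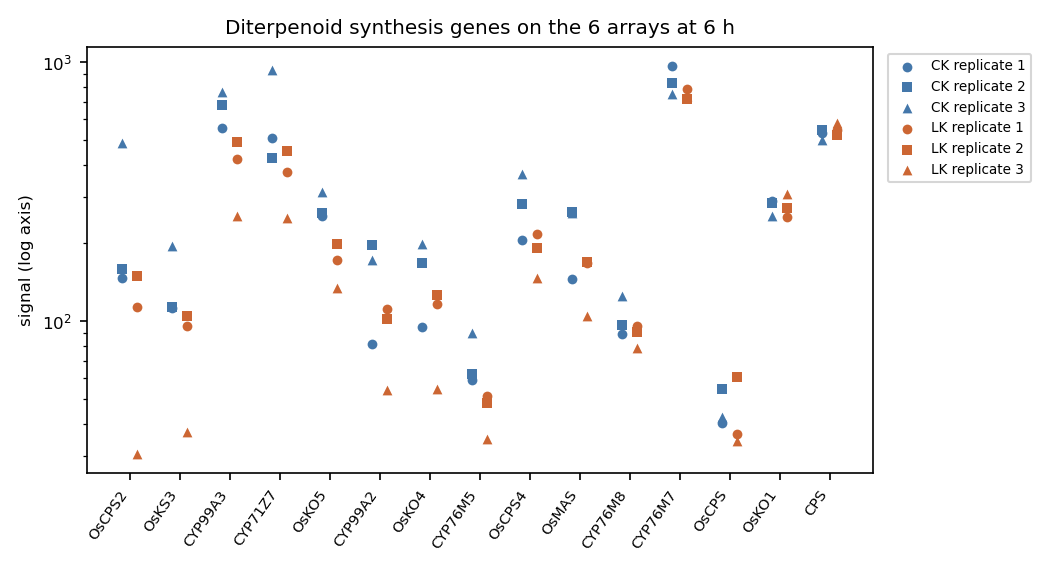
Signal (vertical log axis) of 15 diterpenoid synthesis genes on the 6 arrays at 6 h, blue for CK and orange for LK roots, with a marker shape for each replicate number. Replicate 3 (triangles) is the highest CK array in 9 genes and the lowest LK array in 12.

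Photosynthesis genes lay on the other side without a call. These are transcripts of green tissue, and roots grown in light hold some of them. Of 8 genes, 6 had log2 differences above 0. The chlorophyll-binding protein gene LHCP at LOC4333359 read 112, 75.7 and 61.0 in CK and 132, 175 and 169 in LK roots (0.97 ± 0.24 (SE), adjusted p = 0.088), and the one at LOC4324599 2335, 1851 and 1773 and 2393, 2706 and 2742 (0.40 ± 0.10 (SE), adjusted p = 0.10). CK replicate 1 was the highest CK array in both, and without it the median of the list was 0.38 instead of 0.26, with 0 of 8 below 0. Without LK replicate 3 it was 0.16, with 2 of 8 below 0. OsrbcS, for the small subunit of Rubisco, read 189, 99.5 and 114 and 109, 91.7 and 193, with full overlap. The part of green tissue in any other result at 6 h was not tested.

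The later times have their own CK arrays, so they show which of the early changes were seen again. Of the 68 probe sets that rose at 6 h, 39 were also higher at 3 d (8.50% of all probe sets were), 5 were lower (5.75%) and 24 not called, and at 5 d the counts were 36 (10.5%), 9 (12.8%) and 23. Of the 65 that fell, 32 were lower and 2 higher at 3 d with 31 not called, and 28 were lower and 11 higher at 5 d with 26 not called. Neither later time gave a call for 13 of the rises and 17 of the falls. Over the 3 times in order, median log2 differences were 0.57, 0.35 and 0.32 for the rises and -0.49, -0.25 and -0.14 for the falls. The 6 h values of these probe sets chose them, which pushes their 6 h values away from 0.

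Whether the effect itself differed between times was tested with an interaction term, which passed in 2.88% of all probe sets for 3 d and 10.2% for 5 d. Of the 133 probe sets called at 6 h, the effect differed at 3 d in 30 of the rises and 13 of the falls, and at 5 d in 40 and 35. OsHKT2;1 and LOC4344351 grew: their log2 differences were larger at 3 d by 1.63 and 2.45. OsWNK7, OsPIP2;1 on its weaker probe set, PDX11 and OsLOL4 were larger at 5 d by 0.29 to 0.87. HIRL2, LAC24, LOC4346682 and LOC4343604 gave lower log2 differences at 3 d, by -0.62 to -1.33 from those at 6 h, and were not called there. LOC4344608 was called lower at 3 d (-0.36, adjusted p = 0.041) and not at 5 d (0.04).

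Some early changes were called in the opposite direction later, 10 of the rises and 11 of the falls at 3 d or 5 d, and 4 and 2 at both. At 5 d, 9 of the 68 rises were lower, beside 12.8% of all probe sets, and 11 of the 65 falls higher, beside 10.5%. At 3 d, 5 of the rises were lower (5.75% of all) and 2 of the falls higher (8.50% of all). The number of reversals is therefore not read as a trait of the early set. LOC4336695 fell at 6 h and was higher at 3 d and 5 d (0.98 and 0.91), as was OsTIP1;2 (0.73 and 0.37). LOC4345349, with the largest ratio at 6 h, had lower means in LK than in CK roots at both later times, described here without a p-value. Mean signals at 3 d were 44.9 for CK and 25.9 for LK roots, and those at 5 d 23.6 and 11.3. The array medians were 22.1 to 23.4, so the 5 d signals were near or under them, and no size is given for the later differences. OsPP2C39 on its weaker probe set and LAC24, both higher at 6 h, were lower at 5 d (-0.35 and -0.35). LOC9268371 fell at 6 h and 3 d (-0.53 and -0.68) and was higher at 5 d (1.12).

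**Figure D5:**
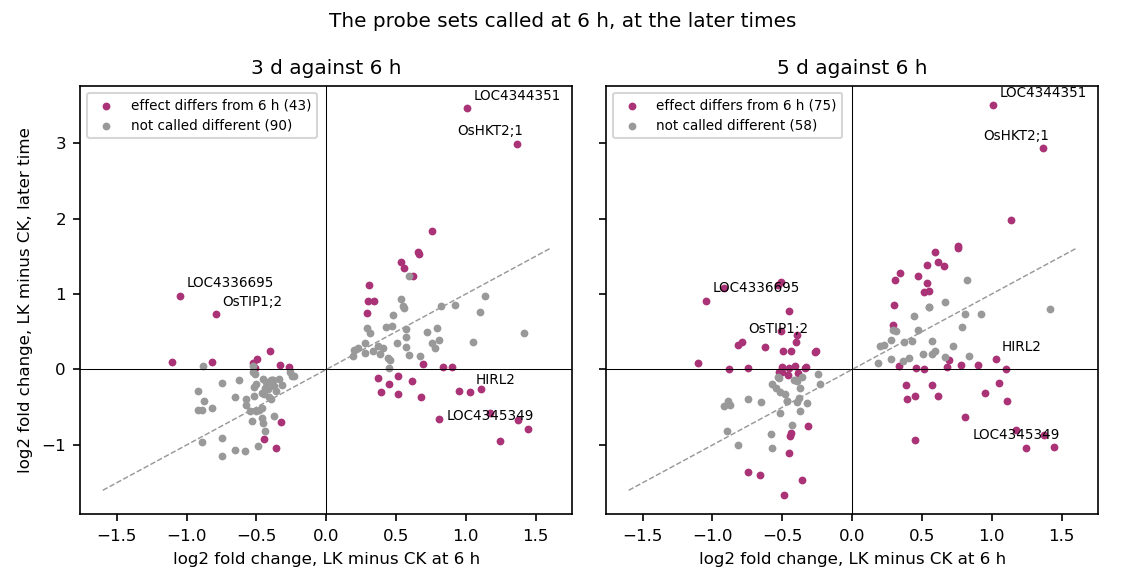
Log2 fold change (LK minus CK) at 3 d (left) and 5 d (right) against that at 6 h for the 133 probe sets called at 6 h, 1 point each. Purple points are those whose effect differed from that at 6 h in the interaction test (43 at 3 d, 75 at 5 d), grey points the others, and the dashed line marks equal effects. Points in the upper left and lower right changed direction.

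Few calls stood in all other limma fits. Besides the 6 fits with an array left out, these were 9 fits with another filter, scaling, offset, floor, set of arrays, block or spread estimate. In all 15 of them 11 probe sets were called, 6 higher and 5 lower. They were those of OsHKT2;1, LOC4344351, LOC4344608, LOC4330966 and LOC4344545 and 1 probe set without a gene on the higher side, and of OsTIP1;2, LOC4327537, LOC4336695 and both probe sets of Os4bglu16 on the lower. LOC4330966 read 325, 312 and 282 in CK and 503, 492 and 452 in LK roots, and LOC4344545 1474, 1304 and 1355 and 1957, 2057 and 2047. These 2 had narrow groups at quite different signal levels, and both were higher again at 3 d (1.56 and 0.82) and 5 d (1.37 and 0.82). HIRL2, LAC24 and OsLHY were called in 14 of the 15. A test on linear signals with unequal variances, the spread of which comes from each probe set alone, gave 0 calls after Benjamini-Hochberg adjustment and an unadjusted p under 0.05 for 1315 probe sets.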

How the data were processed

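Roots were measured on 18 arrays, 3 in each of 6 groups. The authors deposited signal intensities on a linear scale for 57194 probe sets, which they normalized over all 18 arrays with dChip. The submitters' processing notes name GCOS 1.0 and MAS5. Probe-level files and detection calls were not used here. Values were taken to log2 after a floor of 10 had been set, and the 44% with the highest mean were kept (25165 probe sets, lowest geometric mean 32.2), the share that the study counts as detected. A model of 6 groups was fitted to all 18 arrays with limma 3.58.1 in R 4.3.3 (variance trend with intensity, 12 degrees of freedom from the arrays and 5.03 from the prior). Contrasts took the LK minus CK difference at each time and the change of this difference between times. p-values were adjusted by the Benjamini-Hochberg method over all kept probe sets. Fold changes in the text are ratios of mean linear signals, and log2 differences with their SE come from the fit.

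Of the probe sets, 22436 have 1 gene in the platform annotation, 95 several and 34663 none, which gives 17905 genes, 2458 of them named through RefSeq. Order along the chromosomes was taken from the RefSeq table. OsHKT2;1 was identified through the primer list of the study, and OsHAK24 and OsK3.1 were not analysed here. Probe sets of the x_at and s_at types can bind several transcripts. Lists are patterns of gene names, trimmed of aliases of other proteins, and count a gene by its brightest probe set. Named are the called genes with a name, the 10 steepest in each direction among called LOC numbers, up to 3 genes of each list by adjusted p, genes the study names at 6 h and markers. Members and lists were chosen with earlier results of these data known. Alternatives were the filter, scaling, offset, floor, arrays in the fit, a replicate block, the intensity trend and each array left out. The ratio and p thresholds of the study were also used, with other tests than its own.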

Additional observations from a re-analysis of the deposited data

Results flagged for a closer look

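These named genes were singled out because the effect of K+ starvation at 6 h differed from that at a later time by a test of the difference itself (limma interaction term, adjusted p under 0.05). Each value in brackets is the later log2 difference between LK and CK roots minus the one at 6 h. The arrays of the times differ also in the hour of harvest and in the age of the seedlings, and their part in these differences cannot be told apart from that of the length of starvation.

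At 3 d the effect lay further from 0 than at 6 h, on the same side, for OsHKT2;1 (1.63) and LOC4344351 (2.45). It lay nearer to 0, on the same side, for LOC4346682 (-0.80) and LOC4343604 (-0.62). The fitted effect had the opposite sign at 3 d for HIRL2 (-1.33), LAC24 (-0.76), OsTIP1;2 (1.52), LOC4345349 (-2.23), LOC4344608 (-1.04), LOC4343027 (1.203), LOC4336695 (2.02) and OsAKT1 (-0.44). OsAKT1 was not called at 6 h or at 3 d (adjusted p = 0.065 and 0.21).

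At 5 d the effect lay further from 0, on the same side, for OsHKT2;1 (1.57), OsLOL4 (0.87), OsWNK7 (0.49 and 0.61), OsPIP2;1 (0.77), PDX11 (0.29), OsVIT1.2 (-0.43), LOC4344351 (2.49), LOC4327537 (-0.61) and OsCCaMK (-0.45); the values of OsWNK7 are those of its 2 probe sets. It lay nearer to 0, on the same side, for HIRL2 (-0.89), OsLHY (-0.44), LOC4336875 (-1.10), LOC4334549 (-0.72), LOC4343604 (-0.57) and LOC4344608 (-0.65). Opposite signs were fitted for LAC24 (-0.96), GLT2 (-0.78), OsPP2C39 (-0.80), OsTIP1;2 (1.16), LOC4345349 (-2.47), LOC4333004 (-1.23), LOC4343027 (1.19), LOC4336695 (1.95), LOC4343026 (0.90), LOC4327648 (0.76), LOC4326700 (0.92), LOC9268371 (1.65) and OsAKT1 (-0.51). For LOC4333004 the value is that of 1 probe set, whose CK signals at 6 h lay below the array medians. Its other 2 called probe sets kept their sign at 5 d (0.21 and 0.12), and their effects did not pass the interaction test (adjusted p = 0.10 and 0.11). LOC4345349 is listed at both later times because the interaction test flagged it, but only its high LK signals at 6 h brought it into the test. The geometric mean of its other 15 arrays, 27.9, lay under the lowest mean tested, 32.2. Its values are therefore given as descriptions, and no change of its effect between times is concluded from them.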

How the results depend on the processing

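The 46 named results kept their direction in all 823 values over 18 settings: 580 stayed on their side of the threshold, 235 no longer passed and 8 came to pass. Counts moved more. Without a filter 36 probe sets were higher and 34 lower, 469 effects differed at 3 d and 6 list genes were called. Quantile normalization gave 112 higher, 87 lower and 23 list genes, and 56.3% of the calls higher in place of 51.1%. With only the 6 arrays at 6 h, which leaves fewer degrees of freedom and gives no test between times, 18 were higher and 9 lower (66.7% higher), 17 and 8 of them among the main calls, and 3 list genes were called. Leaving out each array in turn gave 20 to 68 higher, 15 to 39 lower, 500 to 792 effects that differed at 3 d and 1936 to 2447 at 5 d, and 4 to 9 list genes. Without replicate 3 of both groups, added after the diterpenoid genes had been seen, 15 were higher, 8 lower and 4 list genes called.

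The ratio threshold of 1.2 with an unadjusted limma p under 0.05 gave 649 higher and 648 lower. On linear signals with unequal variances it gave 362 and 249. There, 1315 probe sets had an unadjusted p under 0.05 and 0 passed the Benjamini-Hochberg adjustment. The study took its p-values from dChip and looked among genes with detection calls, so these counts are not those of its own analysis. The causes were not tested.

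Arrays of CK and LK share replicate numbers in the labels, which do not say what the numbers stand for. The deviations of same-numbered arrays at 6 h correlated at 0.26, 0.11 and -0.02, and LK replicate 3 correlated best with CK replicate 2 (0.36). At 5 d same-numbered arrays gave 0.18, 0.10 and 0.07, each above every other pair of that time. At 3 d they gave 0.16, -0.09 and 0.03. What same-numbered arrays have in common was not tested, and the main fit did not pair them. With a replicate block within time points 57 probe sets were higher and 40 lower (58.8% higher), and 77 of the 133 calls were kept. Array number and signal over background limit precision: the median replicate SD, up to 0.121, is large beside the smaller called changes.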

Other observations

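Some early calls lie outside the lists and the rule for named genes, and were picked after their values had been seen. LOC4349509, LOC4330966 and LOC4337475 were each called on 2 probe sets, the first and second higher and the last lower. With each of the 6 arrays left out in turn, those of LOC4349509 stayed called in 3 and 1 of the 6 fits, those of LOC4330966 in 6 and 3, and those of LOC4337475 in 0 and 1. Of the 18 called genes with several kept probe sets, 7 had more than 1 called, and in 16 all probe sets lay on the same side of 0. The exceptions were OsPIP2;1 and LOC4352928.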
